A study of Danio rerio with 3 samples.

Results

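The zebrafish Hairy-related genes her7, her6 and her4.2 were followed across the arrays of a knockdown study. They are 3 of the 8793 genes that the platform annotation names singly, and they were found as every probe set whose only annotated gene is one of them, which gave 4 probe sets: 1 for her7, 1 for her6 and 2 for her4.2. The genes were chosen by their signals and the ratios between these same arrays, so these values are given as a description and carry no test.

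The RNA came from pools of 400 whole zebrafish embryos at 24 hours post-fertilization, with 1 array for each of 3 groups. One pool was left uninjected, one received a control siRNA, and one received an siRNA against zebrafish PGRP-SC, a peptidoglycan recognition protein. Both siRNAs were given to zygotes at 300 ng/µl in 1 nL, and all pools came from the same mixed batch of embryos, whose strain the labels do not give. The label of the PGRP-SC sample does not itself say siRNA, which was taken from the series' design text.

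Her proteins are basic helix-loop-helix repressors of transcription, and many of their genes are switched on by Notch receptors signalling between neighbouring cells. In the presomitic mesoderm of the tail, her7 and her1 switch on and off in cycles as part of the segmentation clock that times the formation of somites. In the nervous system, the her4 genes, relatives of mammalian Hes5, act in Notch-dependent neural progenitors. The her6 gene, a relative of mammalian Hes1, is transcribed in regions of the brain, and its transcripts also occur outside the nervous system. In the RefSeq gene table for the assembly GRCz12tu, her7 lies next to her1, and her4.2 lies in a cluster with her12, her4.1, her4.3, her4.4 and her4.5.

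Each value is a linear array signal in arbitrary units, and signals of different probe sets cannot be set against each other. Signals under 101.7, the 40th percentile over all arrays, were set to that floor, so a ratio with 1 side under it is a bound. With 1 array per group there was no spread between pools and no test, and this number of arrays limits the precision of every ratio. The difference between the uninjected and control siRNA arrays served as the background: the ratio stayed under 1.71-fold for 95% of the probe sets measured above the floor on both sides. The array maker's muscle actin control, acta1, had a ratio of 5′ to 3′ signal of 0.369 without injection, 0.205 after control siRNA and 0.127 after PGRP-SC siRNA, while that of GAPDH was 0.350, 0.347 and 0.498. The part of this shift in the results was not tested. The annotation gave 0 probe sets for genes of the target's family, and the knockdown was not checked.

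Setting the PGRP-SC siRNA array against control siRNA addresses what differed where both pools had been injected, and the her genes differed among themselves. The clock gene her7 was 2.22-fold higher after PGRP-SC siRNA and her6, a gene of the brain and other tissues, was 2.04-fold higher. The neural progenitor gene her4.2 was lower by both of its probe sets. The genes her6 and her4.2, grouped as neural for this comparison, thus had opposite directions, and in whole-embryo RNA the tissue behind the her6 signal was not measured.

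The signal of her7 was 17.9 without injection, 109 after control siRNA and 242 after PGRP-SC siRNA. Only the uninjected array lay under the floor, and the control siRNA array stood barely above it. Against control siRNA the log2 ratio with PGRP-SC siRNA was 1.15. It was 0.71, short of 2-fold, with a pseudocount of 100 in place of the floor, and a floor at the 60th percentile left no ratio. Against uninjected embryos her7 was at least 2.38-fold higher with PGRP-SC siRNA, a bound set by the floor, and the same signals gave 13.5-fold when no floor was applied. Between the controls the bound was at least 1.07-fold, against 6.06-fold with no floor, so the size of this step rests on a signal of 17.9 that lies under the floor.

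For her6 the signal was 1768 without injection, 2141 after control siRNA and 4370 after PGRP-SC siRNA. All of these lay far above the floor, which held for no other of the 3 genes. The controls differed by 1.21-fold, inside the background between them. The PGRP-SC siRNA array was higher than both, at log2 ratios of 1.03 against control siRNA and 1.31, or 2.47-fold, against the uninjected pool. The first of these stands at the 2-fold mark and was 0.998, just under it, with a pseudocount of 100. Ratios with the PGRP-SC siRNA array were spread more widely than those between the controls. Of the probe sets above the floor, 95% stayed under 2.07-fold against control siRNA and 2.56-fold against uninjected embryos, and her6 lay inside both.

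Both her4.2 probe sets were designed from the same sequence record, and the array maker marks one with the suffix x_at, for probes that may also bind other transcripts. The probe set without that mark had a signal of 168 without injection, 205 after control siRNA and 133 after PGRP-SC siRNA. Its PGRP-SC siRNA signal was the lowest of the 3, at log2 ratios of -0.62 against control siRNA and -0.33 against uninjected embryos, and neither reached a 2-fold difference or left the background between the controls. The x_at probe set had 257, 225 and 85.0 in the same order. The last of these is under the floor, so her4.2 by this probe set was lower by at least 2.21-fold against control siRNA and by at least 2.53-fold against uninjected embryos. With a pseudocount of 100 its log2 ratios were -0.81 and -0.95, short of 2-fold, and a floor at the 60th percentile left none. The probe sets shared a direction and differed in size, and whether the gap comes from transcripts of other her4 genes was not tested. In whole-embryo RNA fewer cells of a type and less RNA per cell cannot be told apart, here and in all that follows.

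**Figure D1:**
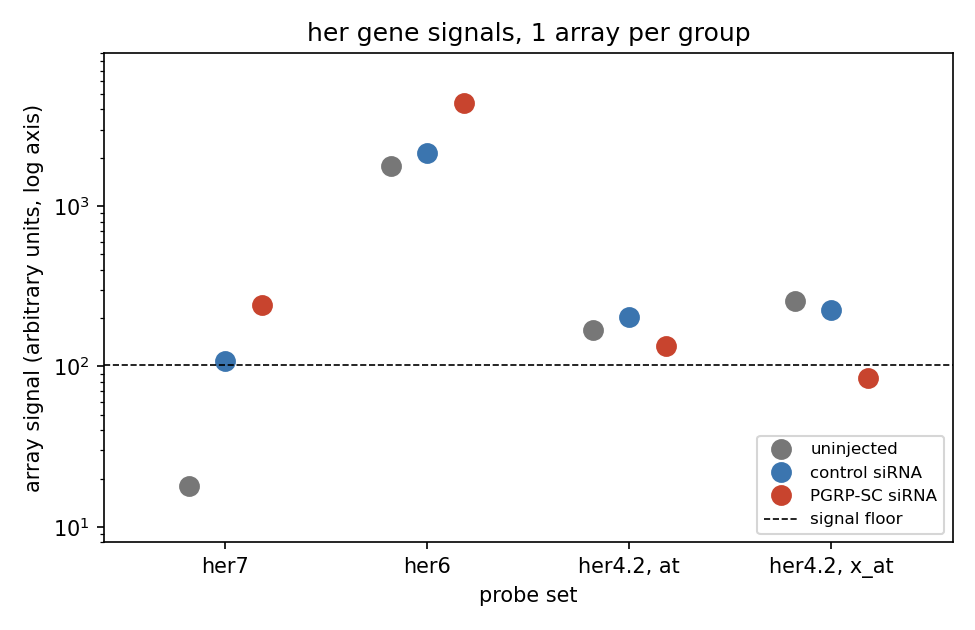
Array signal (arbitrary units, log axis) of the 4 her probe sets in the uninjected, control siRNA and PGRP-SC siRNA arrays, 1 point per array, with the signal floor of 101.7 as a dashed line. The PGRP-SC siRNA point is the highest for her7 and her6 and the lowest for both her4.2 probe sets, and heights are not comparable between probe sets.

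Against control siRNA, her7 and her6 were at least 2-fold higher and 1 her4.2 probe set at least 2-fold lower. Over all 9853 probe sets that gave a ratio here, 2.83% passed 2-fold upward and 3.5% downward. Against uninjected embryos the same 3 probe sets passed 2-fold in the same directions, where 5.56% of 9992 were higher and 6.34% lower. The values of all 3 lay inside the middle 95% of log2 ratios there, from -1.42 to 1.33, with those of her7 and her4.2 as bounds. Between the controls her6 and both her4.2 probe sets stayed under 2-fold, where 1.1% of all probe sets were higher and 0.857% lower. For her7 the bound of at least 1.07-fold does not say whether 2-fold was reached. The rule that chose the genes used these ratios, so nothing is read from the counts.

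Set against each other in the comparison with control siRNA, the log2 ratio of her7 exceeded that of her6 by 0.12. This is less than the 0.35 within which 68% of probe sets above the floor differed between the controls. That figure is for ratios of single probe sets, not for a difference between 2 ratios, and was 0.46 for PGRP-SC siRNA against control siRNA. With a pseudocount of 100 in place of the floor, the difference of her7 from her6 turned to -0.29. The log2 ratio of her7 exceeded that of her4.2 by 1.77 for the probe set without the x_at mark and by at least 2.30 for the other. Against uninjected embryos her7 is a bound, and the differences were at least -0.06 from her6 and at least 1.58 and 2.59 from the her4.2 probe sets. The comparisons with the 2 controls share the PGRP-SC siRNA array, so one is no independent repeat of the other.

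The other her, hes and hey genes were counted in the same way. On the array, 12 further genes of the 26 listed were named singly, and 11 of them gave a ratio against control siRNA. Of these, 0 passed 2-fold upward and 1, her4.5, passed it downward, and their median log2 ratio was 0.24 beside -0.01 over all probe sets. Counts this small are near the 2.83% and 3.5% over all probe sets. Against uninjected embryos 2 of 11 were at least 2-fold higher, her5 and hey1, and 1 was lower, again her4.5, with a median of 0.27 beside 0.02 over all probe sets, where the shares were 5.56% and 6.34%. The upward count was 1 with a floor at the 60th percentile or a pseudocount of 100. Between the controls 9 of these genes gave a ratio by their strongest probe set, bounds included, and all 9 were above 0. Their median there was 0.25 beside 0.01 over all probe sets, about the size of the median against control siRNA. Of the 9, her4.5 and her2 were barely above 0, at 0.03 and 0.04. The her3 gene counted by a probe set at 0.78, while its other probe set had -0.67.

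Within the her4 cluster, her4.5 gave 405 without injection, 413 after control siRNA and 158 after PGRP-SC siRNA by an x_at probe set, a log2 ratio of -1.39 against control siRNA. The controls lay together and the PGRP-SC siRNA array stood apart, but no family gene (0) was 2-fold lower than with control siRNA under a floor at the 60th percentile, a pseudocount of 100 or the mean over a gene's probe sets. A weaker her4.5 probe set had 58.1, 113 and 62.4 and was above the floor in the control siRNA array alone. A probe set annotated to her4.2, her4.3 and her4.5 together had 280, 467 and 152, a log2 ratio of -1.61 against control siRNA and -0.88 against uninjected embryos. One annotated to her4.1, her4.3 and her4.5 had 106, 182 and 137, lower than with control siRNA by a log2 ratio of -0.41 but above uninjected embryos by 0.37. All 6 of these her4 probe sets, members included, were lower with PGRP-SC siRNA than with control siRNA, from -0.14 to -1.61, where a signal under the floor makes the value a bound. They carry overlapping annotation and can bind transcripts of each other's genes, so they are not independent readings.

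Further neural her genes gave different values. The neural gene her2 gave 1166, 1203 and 688 in the same order, a log2 ratio of -0.80 against control siRNA. Its direction was that of her4.2, without reaching 2-fold. The her15.2 gene, another Hes5 relative, had 741, 809 and 793 by its own probe set, and 1558, 1948 and 1376 by one that the annotation assigns to 2 gene records of that name. The first differed little between arrays and the second was lower by a log2 ratio of -0.50 against control siRNA. The her8a gene had 702, 762 and 746, with a second probe set under 5 in every array, and so differed little as well.

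On the side of her7 and her6 stood her5, which acts at the midbrain-hindbrain boundary, and hey1, a Notch target gene of vessels and other tissues. The her5 signals were 87.7, 146 and 248, with the uninjected array under the floor, so her5 exceeded control siRNA by 1.71-fold and uninjected embryos by at least 2.44-fold. The hey1 signals were 221, 393 and 565, and here the step between the controls, at 1.77-fold, was larger than the 1.44-fold step from control siRNA to PGRP-SC siRNA. The her9 signals of 2055, 2859 and 3370 and the hes6 signals of 1315, 1561 and 2005 had the same order with smaller steps, at log2 ratios of 0.24 and 0.36 against control siRNA. For her9, as for hey1, the step between the controls was the larger one, at a log2 ratio of 0.47. The product of hes6 is a partner of the clock proteins Her1 and Her7.

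The clock partner of her7 on the array was its neighbour her1, with signals of 39.7, 64.3 and 123. It had the same order of arrays as her7, but both controls lay under the floor, so its ratio was a bound of at least 1.21-fold against either. The her3 gene gave conflicting probe sets, with signals of 123, 212 and 217 in one and 178, 112 and 88.6 in the other, and no direction is given for it. The hey2 signals of 98.2, 93.9 and 121 crossed the floor only with PGRP-SC siRNA, and those of heyl, at most 14.0, lay under it in every array.

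**Figure D2:**
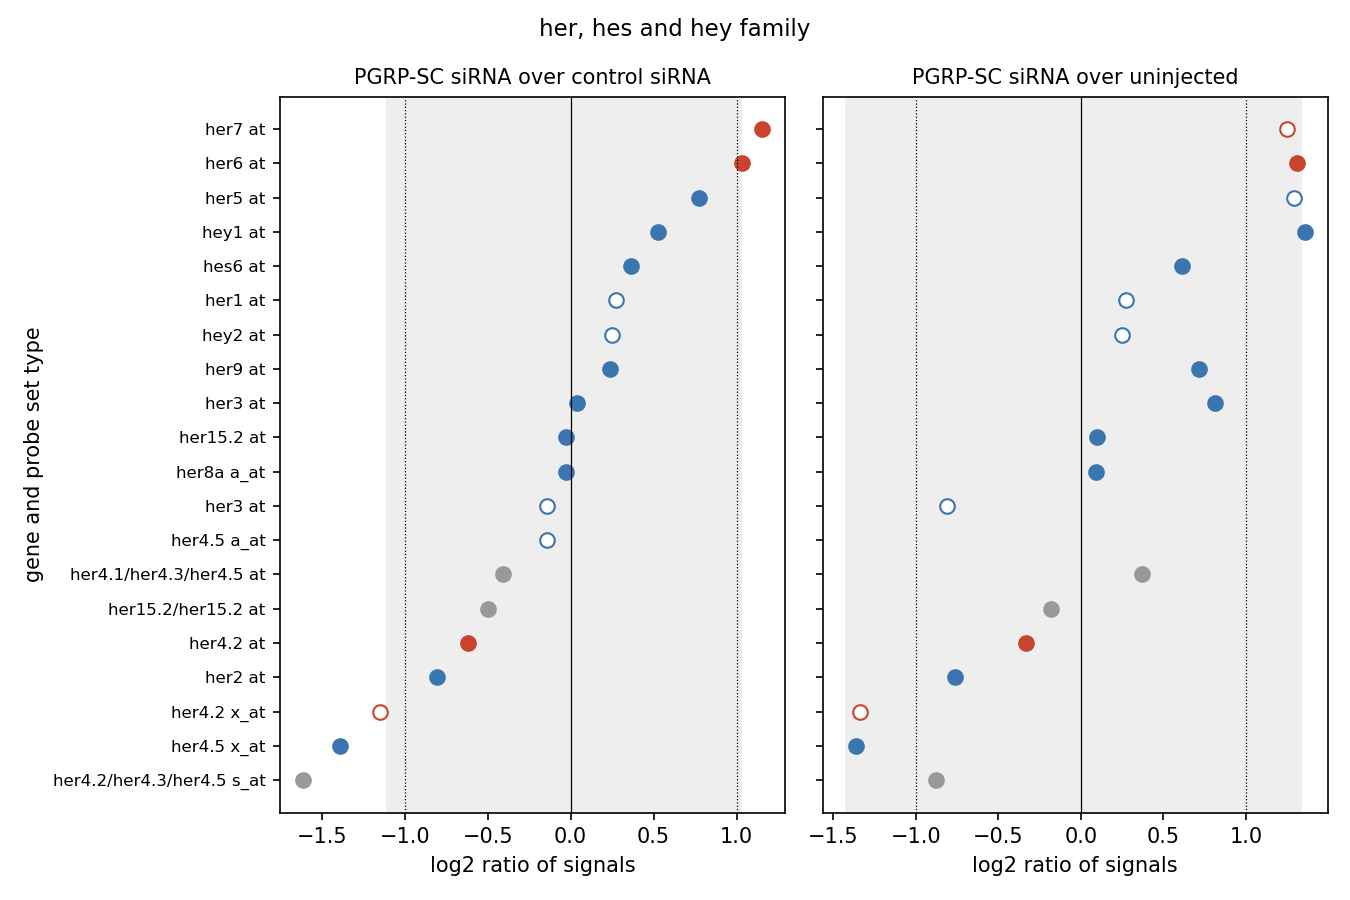
Log2 ratio of the PGRP-SC siRNA signal over control siRNA (left) and over uninjected (right) for the probe sets of her, hes and hey genes that gave a ratio, with her7, her6 and her4.2 in red, other single genes in blue and probe sets of several genes in grey. Open circles are bounds, dotted lines mark 2-fold and the shaded band holds the middle 95% of all probe sets, and her7, her6 and her5 lie at the top on the left while the lowest 4 on the left are probe sets of her4.5, her4.2 and her2, 1 of them shared with her4.3.

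Other genes of the presomitic mesoderm mostly lay on the side of her7. This list and those that follow were chosen with earlier results of these data known. Their counts and medians are therefore a description, and a gap from the shares over all probe sets is no test. Leaving out her7, 18 of the 20 segmentation clock and presomitic mesoderm genes on the array gave a ratio against control siRNA, and 6 passed 2-fold upward and 0 downward. Over all probe sets 2.83% passed it upward and 3.5% downward. The median log2 ratio of the list was 0.83, beside -0.01 over all probe sets. Against uninjected embryos 8 of 18 were at least 2-fold higher and 0 lower, where the shares were 5.56% and 6.34%. The median was 0.91 beside 0.02. The control siRNA array already differed from uninjected embryos in this list. There 2 of 15 were at least 2-fold higher and 0 lower, where the shares were 1.1% and 0.857%, with a median of 0.53 beside 0.01. The 6 genes at least 2-fold higher than with control siRNA were msgn1, cdx4, cyp26a1, fgf8a, tbx16 and noto. The list also holds her1 and hes6, described above, and dlc and dld, described with the Notch genes. Against control siRNA hes6, dlc and dld fell short of 2-fold, at log2 ratios of 0.36, 0.24 and -0.12, and her1 was a bound of at least 1.21-fold. Against uninjected embryos dlc was 2.21-fold higher by its strongest probe set.

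By signal, msgn1, a transcription factor of unsegmented paraxial mesoderm, gave 305.5, 1363 and 4543 in the same order of arrays, although its x_at probe set, at 34.3, 115 and 67.98, did not show this order. The caudal-type homeobox gene cdx4 had 589.5, 1497 and 4807, and cyp26a1, which breaks down retinoic acid, had 387, 688 and 1895. The ligand gene fgf8a had 132, 176 and 470. By the strongest probe set of each, these 4 genes were highest with PGRP-SC siRNA and lowest in uninjected embryos, the order seen for her7.

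The notochord homeobox gene noto, under the floor without injection, had 86.4, 183 and 654, the largest log2 ratio of the list against control siRNA at 1.84. T-box genes of the presomitic mesoderm had this order too, with tbx6 at 103, 178 and 315 and tbx16 at 65.7, 162 and 430. The tbx16 values are from the stronger of its 2 probe sets. The genes mespaa and mespba, which mark the forming somite, did not reach the floor in the controls and stood at 188 and 187 after PGRP-SC siRNA, bounds of at least 1.85-fold and 1.84-fold. Not all genes of the list followed: the protocadherin gene pcdh8 had 24.9, 140 and 119, the retinoic acid synthesis gene aldh1a2 had 998, 914 and 944, and fgf4 and cdx1a stayed under the floor.

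**Figure D3:**
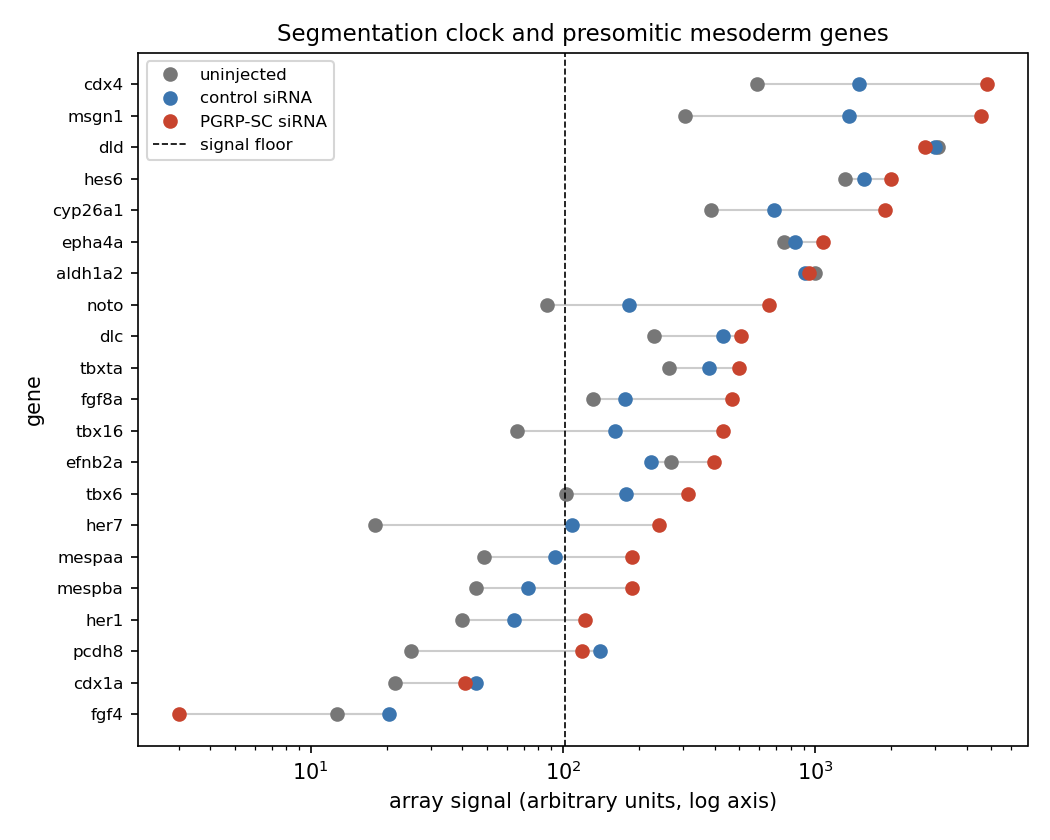
Array signal (arbitrary units, log axis) of her7 and the 20 other segmentation clock and presomitic mesoderm genes, 1 point per array, ordered by the PGRP-SC siRNA signal, with the floor of 101.7 as a dashed line. For her7 and most of the other genes the PGRP-SC siRNA point lies to the right of both controls, whereas those of pcdh8, dld, aldh1a2, cdx1a and fgf4 do not.

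Genes of the Notch pathway, which acts upstream of many her genes, went both ways around a median near 0. Against control siRNA 23 of the 25 on the array could be compared, and 0 passed 2-fold in either direction. Over all probe sets 2.83% passed it upward and 3.5% downward, so a count of 0 is near these shares. The median log2 ratio was -0.01, beside -0.01 over all probe sets. Against uninjected embryos 2 were at least 2-fold higher and 1 lower, with a median of 0.04. Counts of this size stand beside the 5.56% and 6.34% of all probe sets that were higher and lower in that comparison. Between the controls 1 of 23 was at least 2-fold higher and 0 lower, where the shares were 1.1% and 0.857%, with a median of 0.06.

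Among the ligands, dlc, which cycles with the clock, had signals of 230, 430 and 508 by its strongest probe set, and a second one had 119, 166 and 165. The ligand gene dlb of neuronal precursors had 1002, 825 and 457, and its second probe set had 612, 422 and 289, so both were lowest with PGRP-SC siRNA. The ligand genes dld and dla differed little, with dld at 3062, 2977 and 2735. Among the receptors, notch3 had 346, 401 and 536 and notch1a had 346, 215 and 304 by the stronger of its 2 probe sets. The gene psen2 of the receptor-cleaving protease had 200, 289 and 429, and lfng, which encodes a glycosyltransferase that modifies Notch, had 4715, 3600 and 2547. Of the feedback genes, each by the strongest of its 4 probe sets, nrarpa had 1877, 2115 and 2128, and nrarpb had 118, 247 and 152. The nrarpb signal was highest with control siRNA and near the floor without injection.

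Neural lists were examined beside her6 and her4.2. Of 17 neural progenitor genes, 1 passed 2-fold upward and 1 downward against control siRNA, and the median log2 ratio was -0.08. These counts are near the shares of 2.83% and 3.5% over all probe sets, and the upward count was 0 with a pseudocount of 100. Against uninjected embryos 1 was higher and 1 lower, where the shares were 5.56% and 6.34%, and the median was 0.28, of the other sign. Between the controls 1 was higher and 1 lower, where the shares were 1.1% and 0.857%, with a median of 0.21. In both comparisons of PGRP-SC siRNA the higher one was egr2b, a hindbrain segment gene, with signals of 223, 410 and 833. The lower one was fabp7a, a brain fatty acid binding protein gene, with 2012, 817 and 224. The eye and brain gene pax6b at 178, 172 and 272.5 and the progenitor gene sox21b at 452, 429 and 289 went opposite ways without reaching 2-fold. The list as a whole held values on both sides, as her6 and her4.2 did.

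Genes of proneural factors and early neurons mostly lay on the side of her4.2. Of 15 that could be compared with control siRNA, 0 passed 2-fold upward and 3 downward, where the shares over all probe sets were 2.83% and 3.5%. The median was -0.62 beside -0.01 over all probe sets. Against uninjected embryos 7 of 16 were at least 2-fold lower and 0 higher, where the shares were 6.34% and 5.56%. The median there was -0.85 beside 0.02, and between the controls it was -0.18 beside 0.01. The synaptic gene snap25a had signals of 671, 503.5 and 205, the tubulin gene tubb5 had 2400, 1884 and 799, the microtubule regulator gene stmn1b had 740, 678 and 288, and the G protein subunit gene gng3 had 410, 319 and 163. All 4 were lowest with PGRP-SC siRNA, and the proneural factor gene neurog1, at 772, 831.5 and 813, differed little. Against control siRNA neurod4 and insm1b differed little as well, at log2 ratios of -0.03 and -0.04. The isl2a gene went the other way, at 272, 333 and 428, and was the only 1 of the 15 above 0 in that comparison.

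Skeletal muscle forms from the somites, and its genes were counted as a marker of another tissue in the same pools. Of 21 that could be compared with control siRNA, 9 passed 2-fold downward and 1 upward, where the shares over all probe sets were 3.5% and 2.83%. Their median was -0.96 beside -0.01 over all probe sets. Against uninjected embryos 15 were lower and 1 higher, where the shares were 6.34% and 5.56%, with a median of -1.48 beside 0.02. Between the controls 4 of 21 were already at least 2-fold lower and 0 higher, where the shares were 0.857% and 1.1%, with a median of -0.43 beside 0.01. The gene higher with PGRP-SC siRNA was myf5, an early muscle factor that is also active in presomitic mesoderm, at 150, 245 and 539. The contractile fibre genes neb, at 1734, 935 and 251, mylpfa, at 16807, 7024 and 3430, and tnnt3a, at 7364, 3748 and 1442, had the opposite order. The calcium channel gene cacng1a had 734, 753 and 189.5. The muscle actin gene actc1b had 27637, 30014 and 22166 by the strongest of its 4 probe sets, differences inside the background between the controls. Both cacng1a and actc1b were lowest with PGRP-SC siRNA. Neither was lower with control siRNA than without injection. The part of tissue makeup in the her gene values was not tested.

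**Figure D4:**
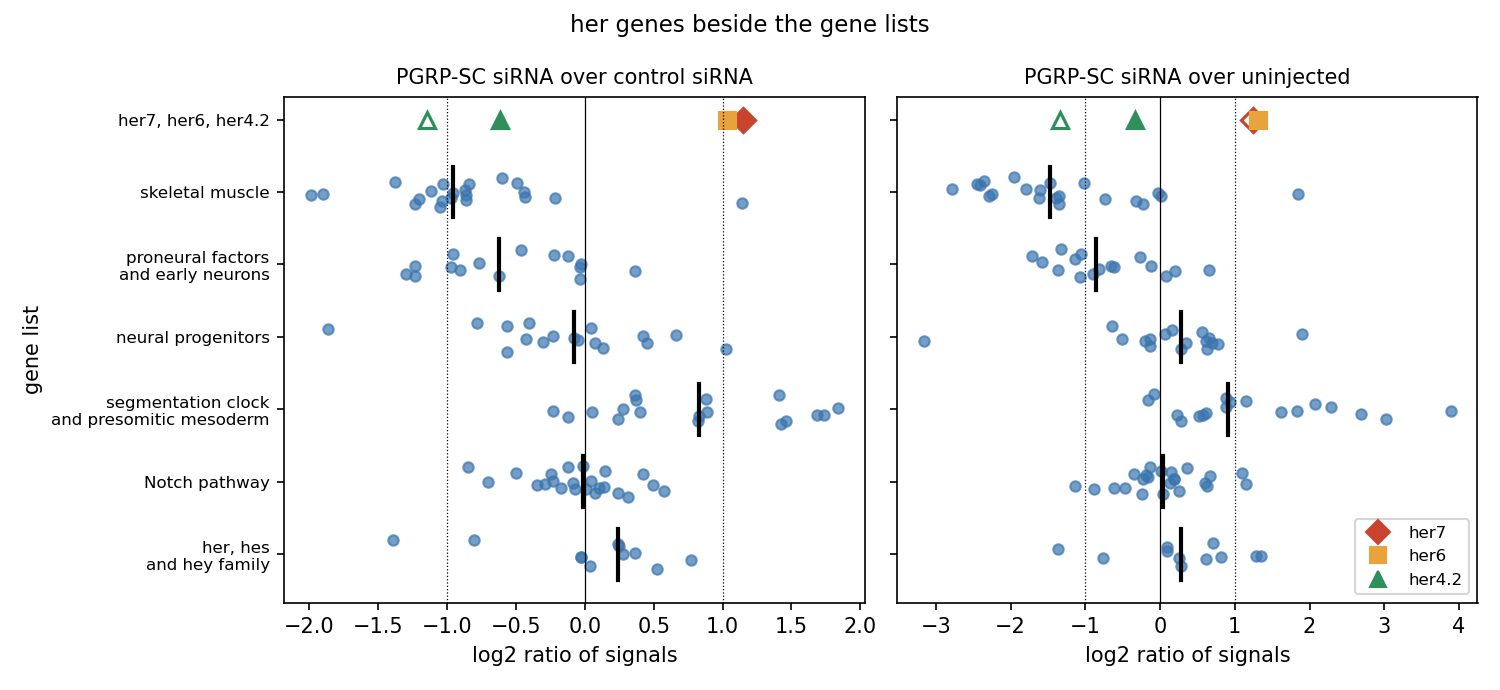
Log2 ratio of PGRP-SC siRNA over control siRNA (left) and over uninjected (right) for each gene of the 6 lists, 1 point per gene, bounds included, with the list median as a black bar, dotted lines at 2-fold, and her7, her6 and her4.2 in the top row, where open symbols are bounds. The median lies at 0.83 for presomitic mesoderm, -0.62 for proneural factors and early neurons and -0.96 for skeletal muscle on the left, with her7 and her6 to the right of 0 and both her4.2 probe sets to the left.

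Genes with the most similar pattern were taken as those with the smallest Euclidean distance between log2 signals centred over the 3 arrays, among 6334 probe sets of named genes above the floor in all arrays. For her6 they were msl1a, fetub and gm2a, at distances of 0.01, 0.02 and 0.03. For her7, with its uninjected signal set to the floor, they were pcmtd1, pak1 and gata5, at 0.03, 0.04 and 0.06. For the x_at probe set of her4.2, with its PGRP-SC siRNA signal set to the floor, they were fgf13a, stxbp2 and the muscle myosin light chain gene myl1, at 0.01, 0.02 and 0.03. With 3 points per pattern a small distance carries little information. The 3 genes themselves were left out of the candidates, and other her, hes and hey genes made up few of the 6334. That 0 of the 9 belong to this family is therefore not read as a result.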

How the data were processed

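The authors deposited 1 signal intensity per probe set and array, made with GCOS 1.4 per the submitters' processing notes, with settings that the sources used here do not give. The deposited intensities had equal 2% trimmed means, 500.1 in each array, and no detection calls. Of 15617 probe sets, 115 array controls were left out, leaving 15502, of which 10795 named 1 gene, 135 several and 4572 none; 10711 had a gene ID in the RefSeq table, which gave current symbols. Over the analysed probe sets the arrays were brought to one 2% trimmed mean, floored at 101.7, and compared as log2 ratios in Python 3.11.15 with numpy 2.4.6 and pandas 2.3.3. Printed signals are the deposited ones. Quantile and cyclic loess alternatives used limma 3.58.1 in R 4.3.3. The ratios were checked on simulated data. The simulated differences were larger than 2-fold and lay on strong signals only, so the check does not cover ratios near the floor.

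The genes and lists were chosen with earlier results of these data known. Named genes were all probe sets of the 3 genes, the family genes on the array, the 4 genes of each other list with the largest mean ratio from both controls among those above the floor in all arrays, and the 3 nearest patterns; others were named after their values were seen. A list gene took the value of its strongest probe set, by mean signal.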

Additional observations from a re-analysis of the deposited data

How the results depend on the processing

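No paired analysis was possible because each group has 1 array. The 18 ratios and differences of the her genes and 24 counts over the lists were recomputed under 8 alternatives, as far as each applied, which gave 303 values. A ratio was taken as moved when it shifted by more than 0.35 on the log2 scale and a count when it changed by over 1.5 times. By this rule 262 values did not move, and under median scaling, quantile normalization and cyclic loess none did. At the edge of the rule, the muscle genes at least 2-fold lower than with control siRNA were 6 under median scaling and 9 before. The moved values arose where the floor was shifted, dropped or replaced by a pseudocount, apart from 2 counts under the mean over probe sets. The pseudocount was added to every signal, so these moves were not confined to signals near the floor. The cause was not tested further. With the floor at the 60th percentile, her7 and both her4.2 probe sets gave no ratio against control siRNA.

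With no floor, her7 had log2 ratios of 3.75 (PGRP-SC siRNA) and 2.60 (control siRNA) against uninjected embryos and exceeded her6 by 2.44 and the her4.2 probe sets by 4.08 and 5.34. A floor at the 20th percentile gave 2.72, 1.57, 1.41, 3.05 and 4.31. With a pseudocount of 100, her7 was at 0.71 against control siRNA, under 2-fold, at -0.29 relative to her6 and at 1.09 and 1.52 relative to the her4.2 probe sets; between the controls it was at 0.82, and the x_at probe set of her4.2 was at -0.95 against uninjected embryos.

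Counts at 2-fold moved as follows. Lower than with control siRNA were 2 family, 1 Notch and 1 presomitic gene with no floor, and 0 family genes for a 60th percentile floor, a pseudocount or the mean over probe sets. Higher than with control siRNA were 1 neuronal gene with no floor and 0 neural progenitor and 0 muscle genes with a pseudocount. Lower than in uninjected embryos were 2 family, 2 Notch and 1 presomitic gene with no floor, 2 Notch genes with the floor at the 20th percentile, 0 family and 4 neuronal genes for a 60th percentile floor or a pseudocount, and 0 Notch genes with a pseudocount. Higher than in uninjected embryos were 1 neuronal gene with no floor, 1 family, 0 Notch and 4 presomitic genes for a 60th percentile floor, 1 family and 0 Notch genes with a pseudocount, and 1 Notch gene with the mean over probe sets.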
